A study of Homo sapiens with 28 samples.

Results

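The 9 genes described here were SPINK5, SPINK6, SPINK7, A2ML1, PI3, SLPI, CST6, PLAU and PLAUR, which encode protease inhibitors of squamous epithelium together with urokinase and its receptor. They were chosen by name and found by gene symbol, 1 row each, among the 23533 genes of the RNA tables. The cells were EPC2, an immortalised human esophageal epithelial line, seeded densely in KSFM medium 1 day earlier. Treatment lasted 6 h and was 100 ng/ml of IL-13, 100 nM of vitamin D, the 2 agents together, or none (untreated). RNA was sequenced from 3 samples per treatment, and chromatin immunoprecipitation was sequenced in 16 libraries. H3K27ac, H3K4me3 and H3K9ac had 1 library for each of the 4 treatments. STAT6 had 1 library with IL-13 and 1 of untreated cells, and VDR had 1 with vitamin D and 1 of untreated cells. All groups are 1 cell line, and neither the separateness of the cultures behind the RNA samples nor the form of vitamin D is stated in the labels. P-values therefore measure the spread between samples that may be technical replicates.

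Secreted inhibitors hold in check the proteases that squamous epithelium releases as it matures and sheds. Kazal-type inhibitors (the SPINK family) block serine proteases such as the kallikreins, WAP-domain inhibitors (PI3 and SLPI) block elastase and related enzymes, cystatins block cysteine proteases, and A2ML1 traps proteases of several classes. Urokinase, the product of PLAU, cleaves plasminogen to plasmin at the cell surface, where it is held by its receptor, the product of PLAUR. IL-13, a cytokine of allergic inflammation, activates STAT6, and the ligand-bound vitamin D receptor, VDR, itself binds DNA.

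After IL-13, 5 of the 9 genes fell and 0 rose. After vitamin D, 4 rose (CST6, PI3, SLPI and PLAUR) and 5 fell (SPINK7, SPINK6, SPINK5, PLAU and A2ML1). After both agents, 4 fell (SPINK7, A2ML1, PLAU and SPINK5) and 0 rose. SPINK7, SPINK5 and A2ML1 were the 3 genes that fell under every treatment. PI3 and PLAUR were the 2 that moved in opposite directions, down after IL-13 and up after vitamin D. A gene is said here to have risen or fallen where its adjusted p in the authors' deposited table was under 0.05. Of all genes tested, 26.3% passed that threshold with IL-13 (12.3% higher and 14.0% lower), 32.5% with vitamin D (17.5% higher and 15.1% lower), and 31.7% with both (16.0% higher and 15.7% lower). Of genes at 10 RPKM or more in any group, a class that holds 8 of the 9, the shares were 39.0%, 47.1% and 44.5% in the same order of treatments. By the deposited log2 fold changes, 1 of the 9, SPINK7, was called at 1.5-fold or more in any treatment. It was so with IL-13 and with both. Over all genes tested, 4.16%, 5.98% and 9.12% passed both criteria with IL-13, vitamin D and both. By RPKM, SPINK6 and SPINK7 also differed by over 1.5-fold with vitamin D. Their log2 RPKM ratios, with 0.1 added to each level, were -0.68 and -0.62, and the deposited values were -0.46 and -0.56.

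The RNA tables give 1 RPKM value per group, made by the authors, with no spread between the 3 samples. PI3 and SLPI were the most abundant of the 9, at ranks 43 and 42 of all genes in untreated cells. A2ML1 was at rank 145, SPINK5 at 356, PLAU at 404, CST6 at 780, PLAUR at 1125, SPINK7 at 1574 and SPINK6 at 9473. From SPINK6 to SLPI the untreated levels thus ran from 2.65 to 943 RPKM. Summed RPKM per group lay between 377254 and 391648. Of 10 squamous epithelial markers, 9 were at 1 RPKM or more in at least 1 group, with a summed level of 32634 to 37468 RPKM per group. Of the fibroblast, leukocyte and endothelial markers 1 of 7 (COL1A1), 1 of 7 (CD68) and 1 of 4 (VWF) reached 1 RPKM. The granulocyte genes ELANE and PRTN3, which encode neutrophil proteases, and MPO, which encodes a peroxidase, together summed to at most 0.0746 RPKM. The RNA of ELANE, the neutrophil elastase that PI3 and SLPI inhibit, was thus at or near 0. In bulk RNA, fewer cells that express a gene and less of its RNA per cell cannot be told apart.

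**Figure D1:**
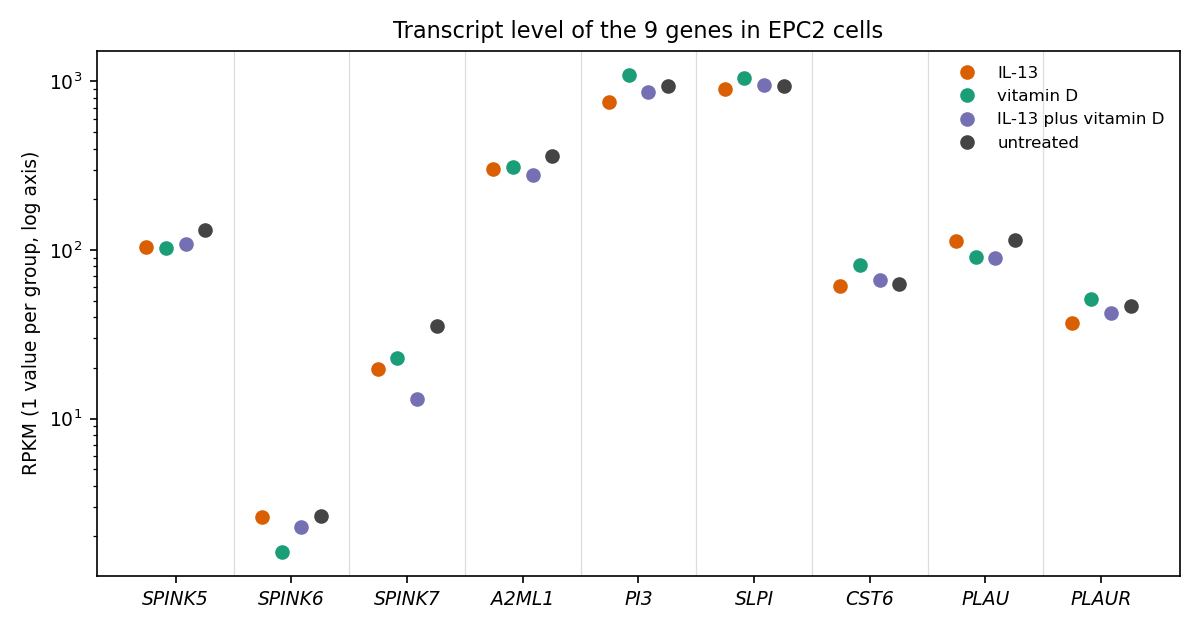
Level of each gene in RPKM on a log axis, 1 point for each treatment group, as deposited by the authors. SPINK7 spans from 13.1 RPKM with both agents to 35.2 RPKM in untreated cells, the widest range among the 9 relative to its level.

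Promoter sequences from 250 bases before to 50 bases after a gene's start were read from RefSeq (GRCh38.p14) for 6 of the 9 genes, in 9 entries. CST6, PI3 and SLPI are named only. The 5 below are shown because these genes differ both in response and in the chromatin at their starts. Capitals mark TATAAA in SPINK7, SPINK5 and A2ML1, GGGCGG in PLAU, and TGANTCA in PLAUR. They are the stretches chr5:148312173-148312472 (SPINK7), chr5:148063730-148064029 (SPINK5), chr12:8822371-8822670 (A2ML1, the upstream of 2 entries) and chr10:73910882-73911181 (PLAU, the downstream of 2 entries), on the plus strand, and chr19:43670120-43670419 (PLAUR) on the minus strand.
SPINK7: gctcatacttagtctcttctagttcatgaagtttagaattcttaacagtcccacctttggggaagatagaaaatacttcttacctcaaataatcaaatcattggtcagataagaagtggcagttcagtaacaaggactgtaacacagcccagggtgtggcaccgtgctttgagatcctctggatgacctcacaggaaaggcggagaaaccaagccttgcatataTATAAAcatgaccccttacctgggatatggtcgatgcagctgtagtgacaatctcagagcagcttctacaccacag
SPINK5: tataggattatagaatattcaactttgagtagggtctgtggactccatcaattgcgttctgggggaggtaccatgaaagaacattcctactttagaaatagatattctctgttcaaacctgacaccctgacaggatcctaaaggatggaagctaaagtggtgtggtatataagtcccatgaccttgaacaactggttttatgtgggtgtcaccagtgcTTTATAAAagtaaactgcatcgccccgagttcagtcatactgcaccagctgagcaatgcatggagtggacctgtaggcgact
A2ML1: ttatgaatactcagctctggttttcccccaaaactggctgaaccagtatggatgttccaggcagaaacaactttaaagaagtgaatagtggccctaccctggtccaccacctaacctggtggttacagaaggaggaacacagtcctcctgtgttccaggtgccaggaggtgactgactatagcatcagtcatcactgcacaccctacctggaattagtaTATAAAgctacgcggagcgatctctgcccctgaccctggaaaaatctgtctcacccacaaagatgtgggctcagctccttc
PLAU: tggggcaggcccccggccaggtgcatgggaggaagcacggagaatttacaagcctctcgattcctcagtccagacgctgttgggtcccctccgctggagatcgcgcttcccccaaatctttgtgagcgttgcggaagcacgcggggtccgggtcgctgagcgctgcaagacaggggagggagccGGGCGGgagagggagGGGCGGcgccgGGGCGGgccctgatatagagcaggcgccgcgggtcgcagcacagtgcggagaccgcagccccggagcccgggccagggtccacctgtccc
PLAUR: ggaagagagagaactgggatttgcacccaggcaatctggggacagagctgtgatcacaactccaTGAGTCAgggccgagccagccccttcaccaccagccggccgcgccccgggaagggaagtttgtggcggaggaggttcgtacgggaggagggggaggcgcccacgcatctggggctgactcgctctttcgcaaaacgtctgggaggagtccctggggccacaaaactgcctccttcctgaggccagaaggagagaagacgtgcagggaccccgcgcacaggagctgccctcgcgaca

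The SPINK7, SPINK5 and A2ML1 stretches held TATAAA shortly before the start. Anywhere in the stretch and on either strand, 11.5% of 35114 promoters of that length hold it. The share with it at that position was not counted. SPINK5 had 2 matches, 1 on each strand, that overlap each other. These 3 stretches were poor in CpG, with 3, 4 and 3 CpG dinucleotides in SPINK7, SPINK5 and A2ML1, where the median promoter has 14. The PLAU stretch shown had 28 CpG and 3 copies of GGGCGG, a motif found in 45.0% of promoters. The entries not shown differed: the upstream PLAU entry had 5 CpG and 0 GGGCGG. The downstream A2ML1 entry had 9 CpG and 0 TATAAA. The contrast in CpG between these genes thus depends on the entry shown. PLAUR had 18 CpG and 1 copy of TGANTCA, the AP-1 type sequence found in 7.71%. Of the spaced palindromes that STAT proteins can bind, TTC and GAA with 4 or with 3 bases between them, neither was in these 5 stretches. The downstream A2ML1 entry held 1 with 4 bases between and a SPINK6 entry held 1 with 3, against 6.44% and 7.66% of all promoters. The DR3-type vitamin D response element was in none of the 9 entries, and in 0.074% of all promoters. Both strands were searched, and a match describes letters in a window, not bound sites.

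SPINK7, a Kazal inhibitor of the esophageal epithelium that is known to inhibit urokinase, changed most. Its level was 19.8 RPKM with IL-13, 22.8 RPKM with vitamin D, 13.1 RPKM with both, and 35.2 RPKM in untreated cells. Every treated group was below the untreated one, and the combination was lowest. In the authors' deposited table the log2 fold change was -0.82 with IL-13 (SE 0.072, adjusted p 3.72e-28). It was -0.56 with vitamin D in the authors' deposited table (SE 0.069, adjusted p 1.28e-14). With both it was -1.39 in the authors' deposited table (SE 0.077, adjusted p 6.68e-71), which is 0.381 times the untreated level. The sum of the 2 single log2 changes was -1.37, and the change with both was -1.39. The IL-13 effect with vitamin D present minus that without it was 0.01 (95% interval -0.21 to 0.24), so a difference within that interval was not detectable. SPINK7 was lower with both than with vitamin D by the authors' deposited table (log2 -0.80, adjusted p 8.67e-19). It was also lower with both than with IL-13 in the derived comparison (log2 -0.57, SE 0.090, adjusted p 2.38e-09).

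SPINK5 encodes LEKTI, the multi-domain inhibitor of kallikreins KLK5, KLK7 and KLK14 whose loss causes Netherton syndrome. Its level was 105 RPKM with IL-13, 103 RPKM with vitamin D, 109 RPKM with both, and 132 RPKM in untreated cells. The 3 treated groups lay close together, all below the untreated one. In the authors' deposited table the log2 fold changes were -0.35 (SE 0.037) with IL-13, -0.30 (SE 0.036) with vitamin D and -0.28 (SE 0.044) with both, with adjusted p of 6.59e-20, 2.2e-16 and 1.9e-09. Unlike SPINK7, the 2 single changes did not add: their sum was -0.66. With vitamin D already present, IL-13 gave a log2 fold change of 0.04 in the authors' deposited table (95% interval -0.05 to 0.12, adjusted p 0.556). The IL-13 effect thus differed by 0.39 (SE 0.057, adjusted p 4.08e-09) between cells with and without vitamin D. SPINK5 was the 1 gene of the 9 for which this difference passed the threshold, which 2.42% of all genes tested did (1.41% higher and 1.01% lower), 3.81% of those at 10 RPKM or more, and 0.57% at 1.5-fold or more.

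SPINK6, a kallikrein inhibitor of skin, was expressed low. It had 2.59 RPKM with IL-13, 1.62 RPKM with vitamin D, 2.27 RPKM with both, and 2.65 RPKM in untreated cells. The authors' deposited table gave a log2 fold change of -0.46 with vitamin D (SE 0.174, adjusted p 0.026). It gave -0.03 with IL-13 (adjusted p 0.933) and -0.18 with both (adjusted p 0.513) in the authors' deposited table. The SPINK6 estimates were the least precise of the 9, with intervals of -0.35 to 0.29 for IL-13 and -0.53 to 0.17 for both. The 3 genes lie in the SPINK cluster of chromosome 5, SPINK5 at chr5:147443535-147516925, SPINK6 at chr5:147582357-147594700 and SPINK7 at chr5:147691990-147695481 (hg19). Their cluster neighbours SPINK9, SPINK13 and SPINK14 were below 0.1 RPKM in every group.

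A2ML1 (chr12:8997600-9029381, hg19), an alpha-2-macroglobulin-like inhibitor secreted by keratinocytes, had 301 RPKM with IL-13, 309 RPKM with vitamin D, 277 RPKM with both, and 359 RPKM in untreated cells. As for SPINK7, the combination was lowest and the untreated group highest. The authors' deposited table gave log2 fold changes of -0.27 (SE 0.033) with IL-13, -0.16 (SE 0.025) with vitamin D and -0.37 (SE 0.035) with both. Their adjusted p in the authors' deposited table were 2.58e-15, 2.45e-09 and 2.93e-24. The sum of the single changes was -0.43, and the difference of the IL-13 effects was 0.08 (95% interval -0.02 to 0.17, adjusted p 0.640).

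PI3 encodes elafin and SLPI the secretory leukocyte protease inhibitor, WAP-domain inhibitors of neutrophil elastase that lie near each other, PI3 at chr20:43803540-43805185 and SLPI at chr20:43880879-43883206 (hg19). PI3 had 756 RPKM with IL-13, 1097 RPKM with vitamin D, 865 RPKM with both, and 937 RPKM in untreated cells. It was lowest with IL-13, highest with vitamin D, and in between with both. In the authors' deposited table its log2 fold change was -0.32 with IL-13 (SE 0.047, adjusted p 7.24e-11) and 0.28 with vitamin D (SE 0.029, adjusted p 7.83e-21). With both, the authors' deposited table gave -0.11 (SE 0.054, adjusted p 0.118). PI3 was lower with both than with vitamin D by the authors' deposited table (log2 -0.38, adjusted p 1.98e-11). It was higher with both than with IL-13 in the derived comparison (log2 0.21, SE 0.064, adjusted p 0.00504).

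SLPI had 898 RPKM with IL-13, 1048 RPKM with vitamin D, 950 RPKM with both, and 943 RPKM in untreated cells. Its order over the 4 groups was like that of PI3 at the ends, over a narrower range. The authors' deposited table gave a log2 fold change of 0.21 with vitamin D (SE 0.030, adjusted p 2.61e-11). It gave -0.09 with IL-13 (SE 0.036, adjusted p 0.0564) and 0.01 with both (SE 0.041, adjusted p 0.843) in the authors' deposited table. The PI3 to SLPI ratio of RPKM was 0.842 with IL-13, 1.05 with vitamin D, 0.911 with both, and 0.993 in untreated cells.

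CST6 (chr11:65779462-65780976, hg19), or cystatin M/E, inhibits legumain and cathepsins L and V in stratified epithelium. It had 61.4 RPKM with IL-13, 81.3 RPKM with vitamin D, 66.3 RPKM with both, and 62.9 RPKM in untreated cells. Only the vitamin D group stood apart. In the authors' deposited table its log2 fold change was 0.42 with vitamin D (SE 0.057, adjusted p 3.43e-12), which was 1.34 times the untreated level. It was -0.05 with IL-13 (adjusted p 0.620) and 0.08 with both (adjusted p 0.429) in the authors' deposited table. IL-13 on top of vitamin D lowered CST6 by the authors' deposited table (log2 -0.32, SE 0.065, adjusted p 4.5e-06). The difference of the IL-13 effects, -0.27 (SE 0.091), did not pass the threshold (adjusted p 0.0904).

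PLAU (chr10:75670862-75677258, hg19) had 112 RPKM with IL-13, 90.3 RPKM with vitamin D, 90.0 RPKM with both, and 114 RPKM in untreated cells. The 2 groups that received vitamin D were below the 2 that did not, whether or not IL-13 was present. In the authors' deposited table the log2 fold change was -0.28 with vitamin D (SE 0.028, adjusted p 5.42e-22) and -0.33 with both (SE 0.037, adjusted p 8.35e-18). With IL-13 the authors' deposited table gave -0.04 (95% interval -0.10 to 0.03, adjusted p 0.523). The combination was below IL-13 by -0.30 (SE 0.043, adjusted p 1.30e-10) in the derived comparison. PLAU overlaps C10orf55 on the opposite strand, which had 2.62 RPKM with IL-13, 1.87 RPKM with vitamin D, 1.71 RPKM with both, and 2.61 RPKM in untreated cells. The sources used here do not say if counting used strand, so reads of these 2 genes cannot be told apart.

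PLAUR moved differently from PLAU. The receptor gene (chr19:44152723-44174498, hg19) had 36.8 RPKM with IL-13, 51.3 RPKM with vitamin D, 42.1 RPKM with both, and 46.5 RPKM in untreated cells. As for PI3, it was lowest with IL-13 and highest with vitamin D. The authors' deposited table gave log2 fold changes of -0.35 with IL-13 (SE 0.048, adjusted p 6.04e-12) and 0.20 with vitamin D (SE 0.045, adjusted p 6.62e-05). With both it gave -0.14 (SE 0.060, adjusted p 0.0687) in the authors' deposited table. PLAUR was higher with both than with IL-13 in the derived comparison (log2 0.21, SE 0.059, adjusted p 0.00212). The RPKM ratio of PLAU to its receptor was 3.06 with IL-13, 1.76 with vitamin D, 2.14 with both, and 2.45 in untreated cells. The RPKM ratio of PLAU to its inhibitor SPINK7 was 5.68 with IL-13, 3.96 with vitamin D, 6.85 with both, and 3.24 in untreated cells. That ratio was higher in each treated group than in the untreated one, and it carries no error because the files hold 1 RPKM value per group.

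**Figure D2:**
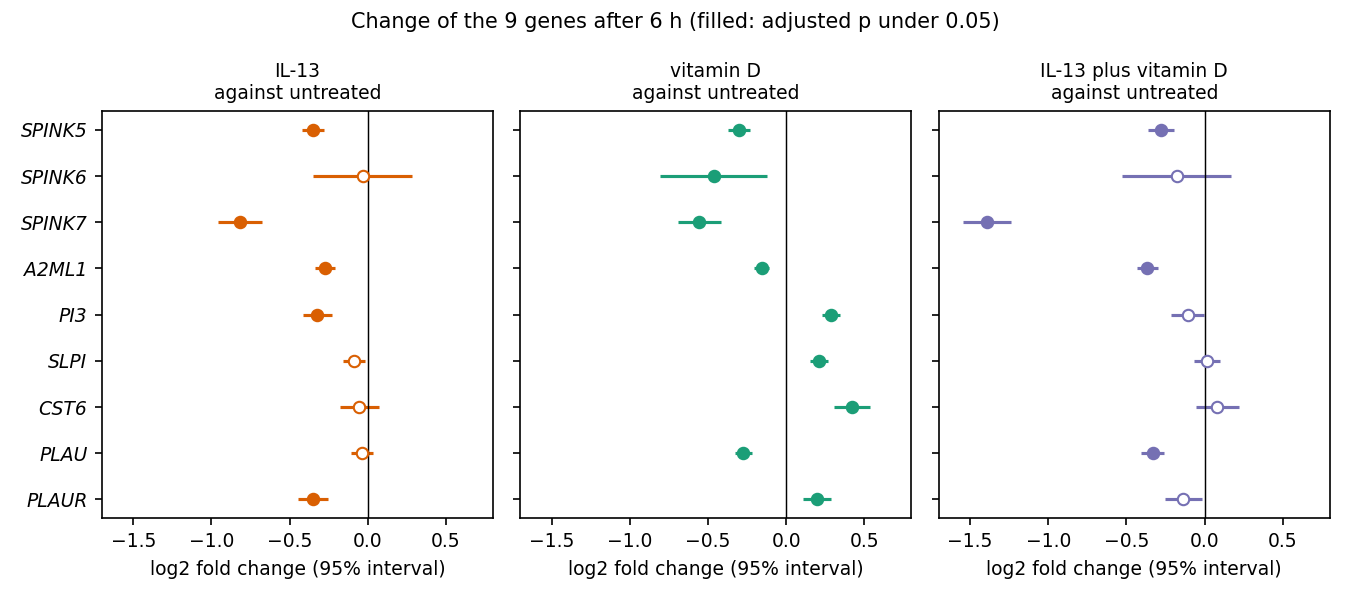
Log2 fold change of each gene against untreated cells with its 95% interval, for IL-13, vitamin D and both. Filled points passed an adjusted p of 0.05: 5 with IL-13, all 9 with vitamin D and 4 with both, and only SPINK7 lies beyond -0.5 with IL-13 and with both.

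IL-13 added to vitamin D lowered 6 of the 9 genes (SPINK7, PI3, CST6, PLAUR, A2ML1 and SLPI) and raised 0 against vitamin D alone in the authors' deposited table, where 33.2% of all genes passed (16.4% higher and 16.9% lower), 46.1% did at 10 RPKM or more, and 5.63% did at 1.5-fold or more. Vitamin D added to IL-13 raised 2 genes (PI3 and PLAUR) and lowered 2 (SPINK7 and PLAU) in the derived comparison, where 24.1% of all genes passed (12.3% higher and 11.9% lower), 32.0% did at 10 RPKM or more, and 5.78% did at 1.5-fold or more. The comparisons share samples, so their calls are not independent. The effects of IL-13 with and without vitamin D rest on different samples, and their difference had 1 call among the 9, SPINK5.

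**Figure D3:**
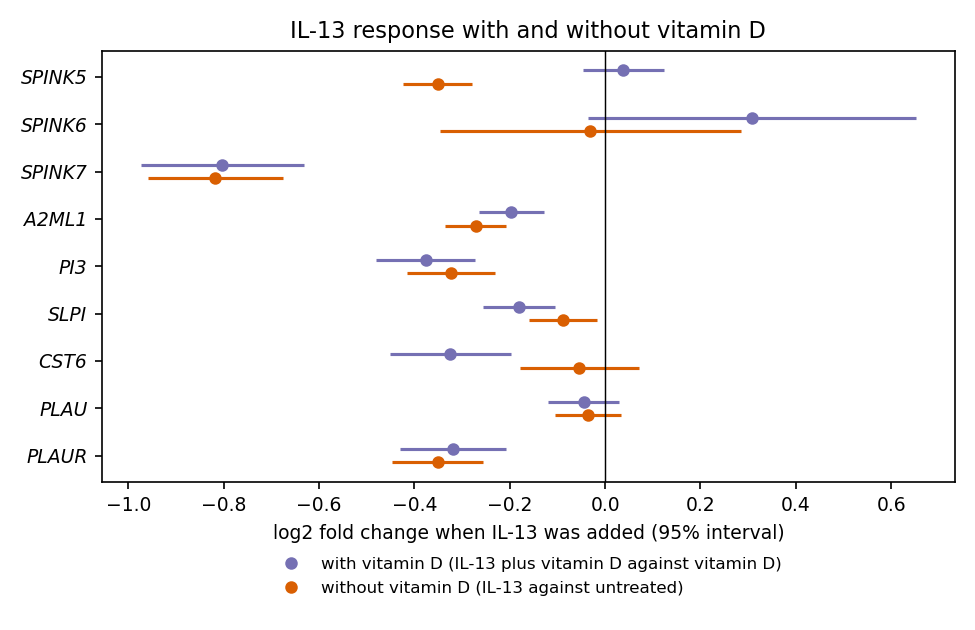
Log2 fold change when IL-13 was added, in cells with vitamin D and in cells without it, with 95% intervals. The SPINK5 values, 0.04 with vitamin D and -0.35 without, lie apart, and those of SPINK7, -0.80 and -0.82, nearly coincide.

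Genes whose products act on, or are acted on by, the 9 were grouped by role. Of 23 serine proteases and their receptors that the inhibitors or urokinase meet, 3 rose and 16 fell with IL-13 (median log2 -0.32), 13 rose and 4 fell with vitamin D (0.21), and 6 rose and 9 fell with both (median -0.09, mean 0.07, which differ in sign). The median of all genes tested was within 0.01 of 0 in each comparison. Of all genes tested, 26.3%, 32.5% and 31.7% were called with IL-13, vitamin D and both. Among genes at 10 RPKM or more the shares were 39.0%, 47.1% and 44.5%. KLK5 and KLK7, targets of the SPINK5 product, differed from each other. KLK5 had 110 RPKM with IL-13, 217 RPKM with vitamin D, 136 RPKM with both, and 141 RPKM in untreated cells. KLK7 had 199 RPKM with IL-13, 211 RPKM with vitamin D, 355 RPKM with both, and 140 RPKM in untreated cells. In the authors' deposited table KLK7 thus rose under all 3 treatments (log2 0.49, 0.65 and 1.34), while SPINK5 fell under all 3. KLK6 had 2.01 RPKM with IL-13, 31.1 RPKM with vitamin D, 17.6 RPKM with both, and 3.40 RPKM in untreated cells, and its vitamin D change was log2 3.18 in the authors' deposited table. F2RL1, the receptor PAR2 that kallikreins can activate, fell under each treatment (log2 -0.22, -0.41 and -0.55 in the authors' deposited table).

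The plasminogen list, which also takes in coagulation genes such as F3 and THBD, held 19 tested genes. Of these, 3 rose and 6 fell with IL-13 (median log2 -0.05). With vitamin D 12 rose and 3 fell (0.19), and with both 6 rose and 5 fell (-0.001). For this list and those below, the shares called over all genes tested were 26.3%, 32.5% and 31.7% with IL-13, vitamin D and both. Among genes at 10 RPKM or more they were 39.0%, 47.1% and 44.5%. PLAT, the tissue-type activator, was low, at 0.401 RPKM with IL-13, 1.46 RPKM with vitamin D, 0.642 RPKM with both, and 0.653 RPKM in untreated cells. Urokinase was thus the plasminogen activator with the higher level per length in every group.

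Of 12 cathepsins and other intracellular proteases (CTSD among them, which is an aspartic protease), 2 rose and 5 fell with IL-13, 7 rose and 2 fell with vitamin D, and 4 rose and 3 fell with both. Of the direct targets of CST6, LGMN had 40.7 RPKM with IL-13, 51.1 RPKM with vitamin D, 39.8 RPKM with both, and 48.3 RPKM in untreated cells. LGMN fell with IL-13 and with both and rose with vitamin D (log2 -0.26, -0.27 and 0.14 in the authors' deposited table), so it was higher, as CST6 was, with vitamin D alone. CTSV fell under all 3 treatments (log2 -0.17, -0.10 and -0.31 with IL-13, vitamin D and both in the authors' deposited table). CTSL rose with vitamin D and with both (log2 0.27 and 0.18 in the authors' deposited table). Of 11 other cystatins, 3 reached 1 RPKM in any group (CSTA, CSTB and CST3), and each of these was above CST6. CSTA had 2122 RPKM with IL-13, 1668 RPKM with vitamin D, 1798 RPKM with both, and 1905 RPKM in untreated cells. CST3 rose with all 3 treatments (log2 0.50, 0.20 and 0.45 with IL-13, vitamin D and both in the authors' deposited table). Among relatives of the WAP inhibitors 4 genes were tested, of which 0 passed with IL-13, 2 rose with vitamin D and 0 passed with both. WFDC12, which lies beside PI3, had 87.8 RPKM with IL-13, 89.6 RPKM with vitamin D, 87.2 RPKM with both, and 85.9 RPKM in untreated cells. Of 5 tested Kazal and Kunitz relatives, 1 rose and 2 fell with IL-13, 1 rose and 0 fell with vitamin D, and 1 rose and 1 fell with both. Of 3 tested relatives of A2ML1, 1 rose and 1 fell with IL-13, and 1 fell and 0 rose with vitamin D and with both.

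The genes with the 3 log2 changes against untreated nearest to those of a member, among genes called in the same comparisons, were listed as a description. For SPINK7, from 1487 candidates, they were SLC47A2, ALOXE3 and RDH12. ALOXE3, an epidermal lipoxygenase, had log2 changes of -0.81, -0.49 and -1.34 with IL-13, vitamin D and both in the authors' deposited table. For PLAUR they were PPP3CA, WNT5B and SCNN1B, from 575 candidates. For A2ML1 they were KDM5B, DLGAP4 and TEAD3, for SLPI MIF, SCRIB and ZNF160, for CST6 C4orf48, ISG20 and TPM2, and for PLAU C19orf48, SPPL3 and NDRG2.

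Peaks were assigned to genes by the authors' files, with 1 library per condition and no replicate, so the regions are described without a test. Fold enrichment and q are the peak lists' own values. VDR with vitamin D had 7 regions in 4 of the 9 genes (SPINK5, CST6, PLAU and A2ML1), and VDR in untreated cells had 2 regions in 2 genes (SPINK5 and A2ML1). Of all genes, 23.6% had an assigned VDR region with vitamin D and 6.45% in untreated cells, in lists of 9224 and 1828 regions.

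The highest VDR regions were assigned to SPINK5 and lay far upstream of it. With vitamin D they were at chr5:147391067-147391874, at chr5:147361781-147362760 and at chr5:147393247-147393784 (hg19), centred 52.1, 81.3 and 50 kb before the start, in intergenic sequence. Their fold enrichments were 26.5, 18.7 and 5.59, against a median of 6.72 over the list. The first ranked 549, the second 957 and the third 6345 of the 9224 regions. In untreated cells a VDR region at chr5:147391285-147391619, with a fold enrichment of 6.63, overlapped the first. The gene on the other side, C5orf46, had 0.167 RPKM with IL-13, 0.725 RPKM with vitamin D, 0.21 RPKM with both, and 1.12 RPKM in untreated cells. C5orf46 fell with IL-13 (log2 -1.03, adjusted p 1.01e-06) and with the combination (log2 -1.27, adjusted p 3.25e-05), and its vitamin D change was -0.35 (adjusted p 0.23), all from the authors' deposited table. These deposited changes are smaller in size than the ratios of its low RPKM levels, and the reason was not tested. Which gene these regions act on was not tested.

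H3K27ac regions assigned to SPINK5 fell into groups. Regions centred near 107 kb and near 50 kb before the start, and near 27 kb inside the gene, were present in each of the 4 H3K27ac libraries. The heights below are of the highest summit in any H3K27ac region that overlaps a VDR region, and that summit need not lie inside the VDR region. For the VDR region at 147393247, in the 50 kb group, it was 19.5 times the library background with IL-13 and 24.6 times with vitamin D. It was 17.7 times with both and 25.8 times in untreated cells. For the region of highest VDR enrichment it was 11.7 times with IL-13, 15.1 times with vitamin D, 12.4 times with both, and 15.0 times in untreated cells. The VDR region 81.3 kb upstream overlapped 0 H3K27ac regions in every library. These heights rest on 6 to 36 stacked fragments at a summit.

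**Figure D4:**
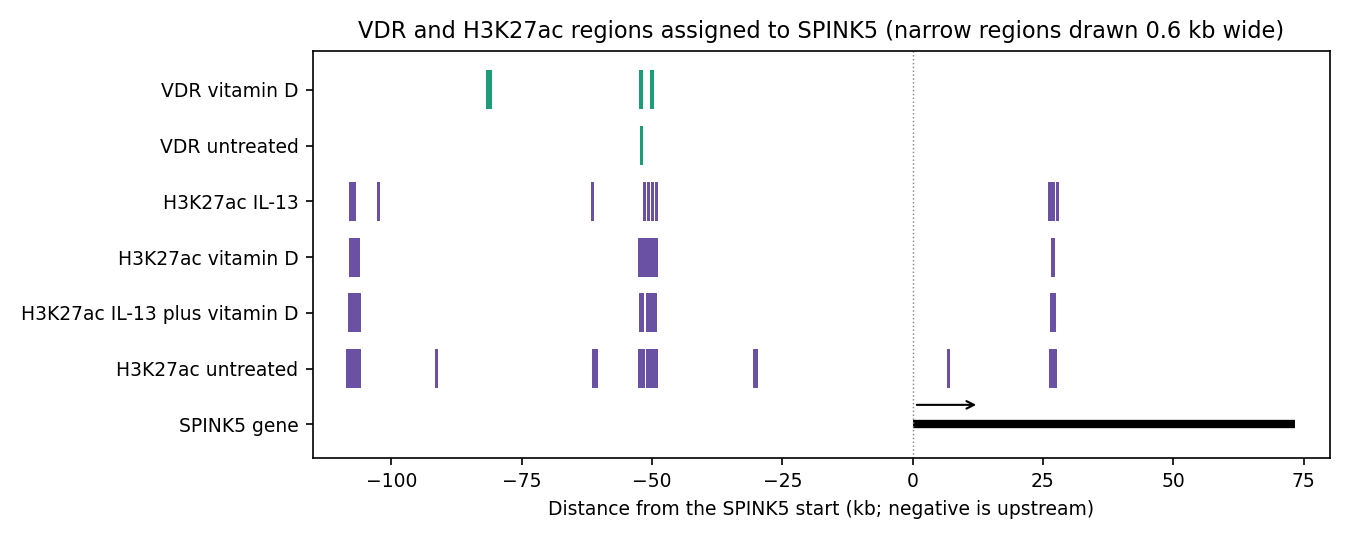
VDR and H3K27ac regions assigned to SPINK5, by distance in kb from its start, 1 row per library. The VDR regions lie 50 to 81.3 kb upstream, H3K27ac is present near 50 kb upstream in every library, and 0 H3K27ac regions lie at the start.

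CST6 was the 1 gene of the 9 with VDR at its start. With vitamin D its regions were at chr11:65778841-65779123, centred 0.48 kb before the start, and at chr11:65780362-65780620, 1.03 kb after it, with fold enrichments of 8.004 and 5.76. In untreated cells 0 VDR regions were assigned to it. The highest H3K27ac summit in the CST6 promoter was 11.7 times background with IL-13, 17.8 times with vitamin D, 8.84 times with both, and 10.7 times in untreated cells. It was highest with vitamin D, as the RNA was. The log2 difference of 0.73 between vitamin D and untreated had a counting SE of 0.55, and 95% of promoters had a difference below 0.55 in that pair of libraries. The H3K27ac promoter summit of PLAU was also highest with vitamin D (53.4 times, 40.8 times in untreated cells), though PLAU RNA fell. At PLAUR (31.5 and 25.1 times) it was higher with vitamin D, and the RNA rose. At SLPI (20.5 and 23.6 times) and PI3 (10.9 and 12.2 times) it was lower, though the RNA rose. At A2ML1 (21.9 and 22.9 times) it was lower, and the RNA fell. These log2 differences were 0.33 (counting SE 0.39) at PLAUR and -0.20 (0.45) at SLPI. At PI3 the difference was -0.15 (0.62) and at A2ML1 -0.07 (0.44). Each was smaller in size than its counting SE, so its direction cannot be matched to the RNA. The PLAU difference was 0.39 (SE 0.30). The median of all promoters in that pair of libraries was 0.12. PLAU had a VDR region at chr10:75666228-75666700, 4.4 kb before its start, with a fold enrichment of 8.60. A2ML1 had one in an intron at chr12:8980684-8980915, with a fold enrichment of 6.51, and in untreated cells another in an exon at chr12:9013738-9013898, with 4.42. Within 50 kb of the genes, VDR regions named after other genes numbered 1 near SPINK7 (chr5:147699711-147700015, assigned to SPINK9, 7.87 kb beyond the SPINK7 start), 3 near PI3 (assigned to WFDC12), 4 near PLAU and 1 near CST6 (assigned to BANF1 and EIF1AD, with a fold enrichment of 5.51). Those near PLAU had fold enrichments of 4.79 and 13.8 (assigned to CAMK2G), 12.4 (C10orf55) and 16.3 (VCL), and 3 of the 4 were above the 8.60 of the region assigned to PLAU itself.

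STAT6 with IL-13 had 2 regions, 1 for PLAUR and 1 for PI3, and STAT6 in untreated cells had 0. Of all genes, 9.87% had a STAT6 region with IL-13 and 0.888% in untreated cells. The PLAUR region, chr19:44172845-44173070, lay in an intron 1.54 kb after the start, with a fold enrichment of 3.46. The PI3 region, chr20:43786605-43786754, lay 16.9 kb upstream, with a fold enrichment of 3.71. Both genes fell with IL-13. Neither region reached a -log10 q of 5, at 2.12 and 2.74, so both were weak peaks. SPINK7, SPINK5 and A2ML1, which also fell with IL-13, had 0 STAT6 regions, within 50 kb as well.

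Each of the 9 genes had an H3K27ac region in untreated cells, where 74.4% of all genes had one. The number was 8 in each treated library, where, for IL-13, vitamin D and both, 68.7%, 69.6% and 69.9% of genes had one. The gene missing in the treated libraries was SPINK7, whose single region in untreated cells, chr5:147689372-147689565, lay upstream, centred at -2522 bases from the start. Its summit was 7.16 times the background, and the lowest summits listed were 7.81 times background with IL-13, 6.84 with vitamin D, 7.08 with both and 4.30 in untreated cells. A summit of that height was thus below or near the lowest that the treated libraries list, and its absence there does not show a loss.

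H3K4me3, the mark of active promoters, was assigned to 4 of the 9 genes with IL-13, 6 with vitamin D, 4 with both, and 6 in untreated cells, where 64.1%, 65.7%, 65.5% and 65.0% of all genes had a region. Within 2000 bases of the start in untreated cells it was present at A2ML1, CST6, SLPI, PLAU and PLAUR and not listed at SPINK5, SPINK6, SPINK7 and PI3, against 62.0% of all genes with one. Of genes at 100 RPKM or more, the range of SPINK5 and PI3, 95.3% had such a region, and 93.7% of those at 500 RPKM or more. PI3, at rank 43, and SPINK5, at rank 356, were thus among the 22 of 469 genes in that class with no listed H3K4me3 region at the start. Among genes with 1 promoter entry and 10 RPKM or more, 68.8% of 96 with fewer than 5 CpG in the promoter had the mark, against 98.7% of 2283 with 20 or more. SPINK5 and SPINK7, with 4 and 3 CpG, fell in the first class and lacked the mark. A2ML1 has 2 entries and is outside this count; its upstream entry, with 3 CpG, carried the mark. H3K9ac, another mark of active promoters, was assigned to 6 genes in each treated library and to 7 in untreated cells, where, in the order IL-13, vitamin D, both and untreated, 63.5%, 64.3%, 63.8% and 62.6% of genes had a region. Within 2000 bases of the start in untreated cells H3K9ac was present at A2ML1, CST6, SLPI, PLAU and PLAUR, 5 of the 9, against 55.9% of all genes.

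PLAU and PLAUR had the highest H3K4me3 of the 9. At the PLAU promoter it was 143 times background with IL-13, 111 times with vitamin D, 88.1 times with both, and 131 times in untreated cells. At PLAUR it was 111 times with IL-13, 111 times with vitamin D, 96.4 times with both, and 87.1 times in untreated cells. At A2ML1 it was 39.7 times with IL-13, 36.5 times with vitamin D, 22.0 times with both, and 45.7 times in untreated cells. The A2ML1 difference between both and untreated was -1.05 on the log2 scale with a counting SE of 0.48. It was below the 5th percentile of all promoters (-0.63) in that pair of libraries, whose median was -0.34. Measured from that median it was -0.71, and it rests on 16 fragments with both and 21 in untreated cells. Promoters with few fragments scatter more, so that percentile does not gauge it closely. The A2ML1 mark lay at the upstream of its listed starts, chr12:8975248-8976810 in untreated cells, and not at 8997600, the start given in the RNA tables.

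**Figure D5:**
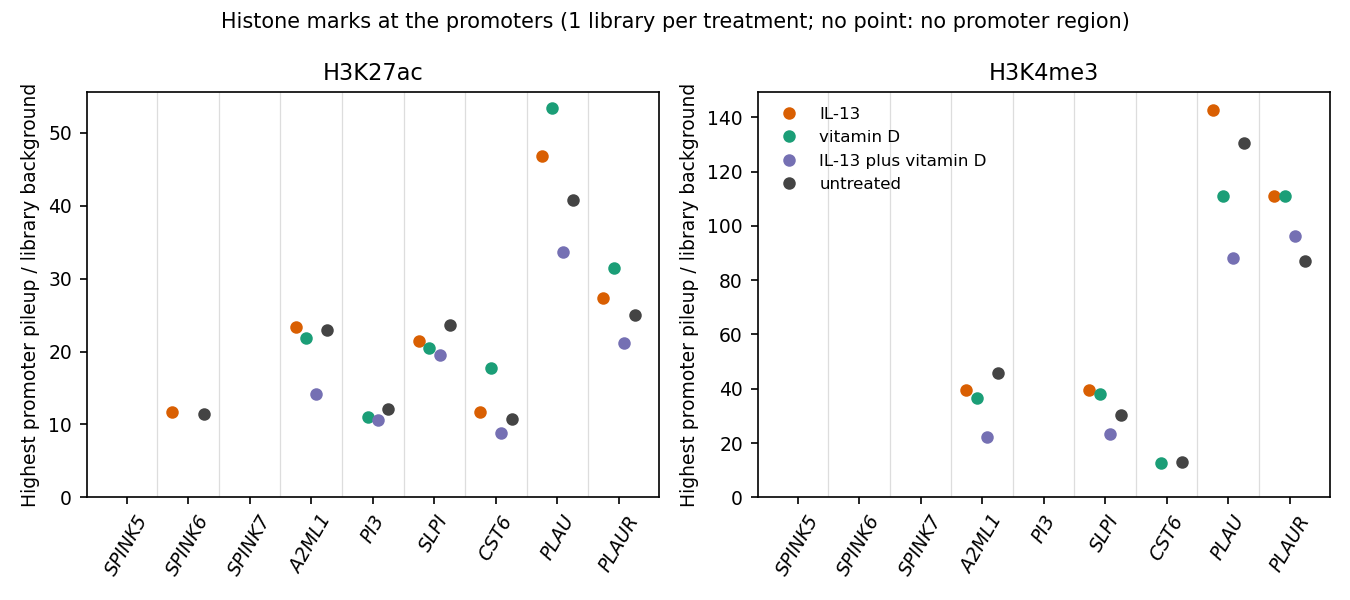
Highest summit of H3K27ac and of H3K4me3 in each gene's promoter region, as a multiple of the library background, 1 point for each library. PLAU and PLAUR are highest in H3K4me3, and SPINK5, SPINK7, SPINK6 and PI3 have no H3K4me3 point.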

How the data were processed

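The 9 genes and the lists of related genes were chosen with earlier results of these data known. Per the submitters' processing notes, MACS2, Bowtie, STAR, Trim Galore and SAMtools were used, with the builds hg19 and GRCh37; no versions or roles are listed. RPKM was computed by the authors, with 1 value per group in each of 4 tables, per the file headers; read depth and the spread between samples are unknown here. The log2 fold changes, p-values and adjusted p-values are the authors' deposited values, and no source used here names the test behind them; an adjusted p of 1 was treated as not tested. One table carries a name for the combination and IL-13, but its RPKM column and fold changes are those of the combination and vitamin D (correlation with the log2 RPKM ratio to vitamin D 0.995, to IL-13 -0.01), and it was used as such.

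Each SE was worked out from the deposited log2 fold change and its p, and 95% intervals are 1.96 SE. The combination against IL-13, and the IL-13 effect with vitamin D minus that without, were derived by subtraction of log2 fold changes and z tests with Benjamini-Hochberg adjustment over 14734 genes, and were tested on simulated data. In them 11 genes whose tables disagreed by over 0.5 (log2) were left out.

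The ChIP files are 1 peak list per library. The pileup signal, the fold enrichment (a ratio over background) and the -log10 q are the authors' deposited values, per the file headers. The background implied by pileup and fold enrichment was nearly constant within each histone and STAT6 list. For H3K27ac with IL-13 its 5th and 95th percentiles were 0.512267 and 0.512273. In the VDR lists these percentiles were 0.918 and 2.00 with vitamin D, and 0.810 and 1.79 in untreated cells. Summits were merged by shared start and end, and pileup was divided by the library background recomputed from pileup and fold enrichment. Counting errors cover counting only. VDR pileups with vitamin D had been scaled (0.0955% whole numbers) and were not compared. Promoter letters came from RefSeq (GRCh38.p14), and no coordinates were converted from hg19. Python 3.11.15 with pandas 2.3.3 and scipy 1.17.1 was used.

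All 9 genes were named in every comparison. Of the other lists, named genes were up to 3 per list and comparison with the largest called change at 1 RPKM or more, and a fixed set of direct partners. Some genes that this rule names are not reported here. Alternatives were other adjustments, a 1.5-fold minimum, stricter thresholds, RPKM ratios with pseudocounts of 0.1 and 1, wider assignment of regions, and other scalings of pileup. Shares among genes at 10 RPKM or more and regions within 2000 bases of a start were chosen after seeing the data.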

Additional observations from a re-analysis of the deposited data

Results flagged for a closer look

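The IL-13 effect on SPINK5 differed between cells with and without vitamin D by 0.39 on the log2 scale (SE 0.057, adjusted p 4.08e-09 by a z test over 14734 genes). It stands here because the difference between the 2 effects itself passed the threshold. With vitamin D present the IL-13 change was 0.04, and without it -0.35, both from the authors' deposited tables. The difference kept its call with genes at 1 RPKM or more and at an adjusted p under 0.01. The cause was not tested.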

How the results depend on the processing

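No paired analysis was possible because the RNA columns hold 1 value per group and carry no replicate numbers, and no replicate could be left out for the same reason. A minimum of 1.5-fold was applied to the deposited log2 fold changes. The 9 genes then had 1 call with IL-13, 0 with vitamin D, 1 with both, and 1 for both against vitamin D. These stood in place of 5, 9, 4 and 6, and the 1 gene was SPINK7. With other adjustments SLPI was added with IL-13 (6 called), and at an adjusted p under 0.01 SPINK6 was lost with vitamin D (8 called). The derived comparisons kept 4 and 1 calls among the 9 under each alternative, though over all genes the count for both against IL-13 was 2294 with variances summed plainly, against 3555. STAT6 regions with IL-13 numbered 0 at a -log10 q of 5 or more, and 3 within 50 kb of a gene (PLAU added), in place of 2. VDR regions with vitamin D numbered 14 within 50 kb, in place of 7. VDR regions in untreated cells numbered 1 within 50 kb and 1 at a -log10 q of 5 or more, in place of 2. The centre of all listed related genes, as a mean, was 0.25 with vitamin D and 0.054 with both, in place of medians of 0.18 and -0.04. Summed over all regions of a gene, the median log2 difference was 0.32 for H3K27ac with both and -0.61 for H3K4me3 with vitamin D, in place of -0.28 and -0.04 at promoters; the sums move with how much was called. Of single-gene values, 88 moved by less than 1 SE under the alternatives and 20 by more. All 20 were in vitamin D against untreated or in both against vitamin D. There the deposited log2 fold change minus the log2 RPKM ratio had a median over genes of 0.057 and -0.040. For PLAUR with vitamin D the deposited value was 0.20, and the log2 RPKM ratio with a pseudocount of 0.1 was 0.14. The other 54 planned and 3 added values stayed within 1.5 times the count, or moved by less than the median SE of a single gene, without all being identical: VDR regions with vitamin D numbered 6 at a -log10 q of 5 or more, and the median promoter difference changed sign when scaled by the median promoter (-0.11 in place of 0.08 for H3K27ac with IL-13, and 0.10 in place of -0.04 for H3K4me3 with vitamin D), with no test of either. Of the called fold changes of the 9 genes, 0 changed sign under the RPKM ratios. Each ChIP condition is 1 library, so differences in height have no replicate check, and most promoter summits of the 9 genes rest on under 40 fragments.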
